A study of Mus musculus with 17 samples.

Results

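The genes of prolactin and growth hormone signalling through STAT5, and those that make and sense serotonin, were followed in isolated pancreatic islets of mice. The islets gave 17 libraries. The 10 genes were listed by name with earlier results of these data known, and the list has no measured threshold: the receptors *Prlr* and *Ghr*, the transcription factors *Stat5a* and *Stat5b*, the feedback inhibitors *Cish* and *Socs2*, the serotonin enzymes *Tph1*, *Tph2* and *Ddc*, and the serotonin receptor *Htr2b*. All 10 were found among the 78239 gene identifiers of the first table of counts and the 73212 of the second, and 9 of the 10 passed the filter on low counts in each table. *Tph1* did not pass in either table.

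The first table held 4 groups of 3 male mice of C57BL6/N background, namely wildtype littermates and homozygous *Pax4* R192H knock-in mice, each on a standard chow diet (SCD) at 12 weeks of age or after 4 weeks on a high-fat diet (HFD) at 16 weeks of age. *Pax4* encodes a transcription factor of islet development, and the knock-in carries the mouse counterpart of the human R192H substitution in the endogenous gene. Mice on the HFD were older than mice on the SCD, so that diet and age cannot be told apart. The second table held 2 control mice and 3 *Pax4* βiKO mice, all male, homozygous for a floxed *Pax4* allele, given tamoxifen as young adults and sampled at 20 weeks of age after 8 weeks on the HFD. The *Pax4* βiKO mice carried in addition a tamoxifen-dependent Cre recombinase driven by the *Pdx1* promoter, which the controls lacked, so that Cre and the loss of *Pax4* changed together. Replicates are labelled as biological, and no batch is given in the labels. Whether a library came from a single mouse or from pooled islets is not stated, and each library is called a mouse here. Because each table was normalised on its own, levels are not compared between tables by any test.

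Prolactin, placental lactogen and growth hormone bind cytokine receptors on the β cell, which activate the kinase JAK2 and through it the transcription factors STAT5A and STAT5B. STAT5 dimers bind a short palindrome in DNA and switch on *Cish* and *Socs2*, whose products then dampen the receptors. In the islets of pregnant mice this pathway is known to induce the tryptophan hydroxylase gene *Tph1* strongly, and the serotonin made by the β cell acts back on it through receptors such as HTR2B. Tryptophan hydroxylase is the rate-limiting enzyme of serotonin synthesis, and DDC, the aromatic amino acid decarboxylase, carries out the last step.

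The mice of the first table had totals of 24268150 to 42679673 rounded counts, those of the second 28618787 to 31887499. Values are given per 1000000 counts of the scaled library (CPM), and 3 counts corresponded to 0.0724 to 0.126 CPM in the first table and 0.0907 to 0.112 CPM in the second. Such a floor covers counting error only, because these reads carry no identifier of the molecule they came from. *Pax4* itself was at 0 counts in all 17 libraries and therefore checked none of the genotype labels. The labelled tissue was checked on 7 β cell markers, all of them present, whose summed CPM ran from 44350 to 109992 in the first table and from 120461 to 137031 in the second. The summed CPM of 18 acinar markers was 34451 to 96279 in *Pax4* R192H mice on the HFD, above all other groups of that table (12141 to 24341), and ran from 16244 to 102154 in the second table with overlap between its groups. 2 genes without a symbol took 36.2% to 53.3% of the counts in the first table and 5.40% to 6.49% in the second. Mast cell markers, which would accompany another source of serotonin, summed to 2.18 to 5.55 CPM in the first table, and to more in the second (8.00 to 8.77 CPM in *Pax4* βiKO mice, and 8.59 CPM or more in controls). Of the 7, *Ms4a2* was at 0 in every mouse, *Mcpt4* and *Tpsb2* in all groups but *Pax4* βiKO, *Cma1* in 3 groups and *Cpa3* in 1, while *Kit* and *Hdc* were above 0 in every mouse. In bulk islets, fewer cells of a type and less RNA per cell cannot be told apart.

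**Figure D1:**
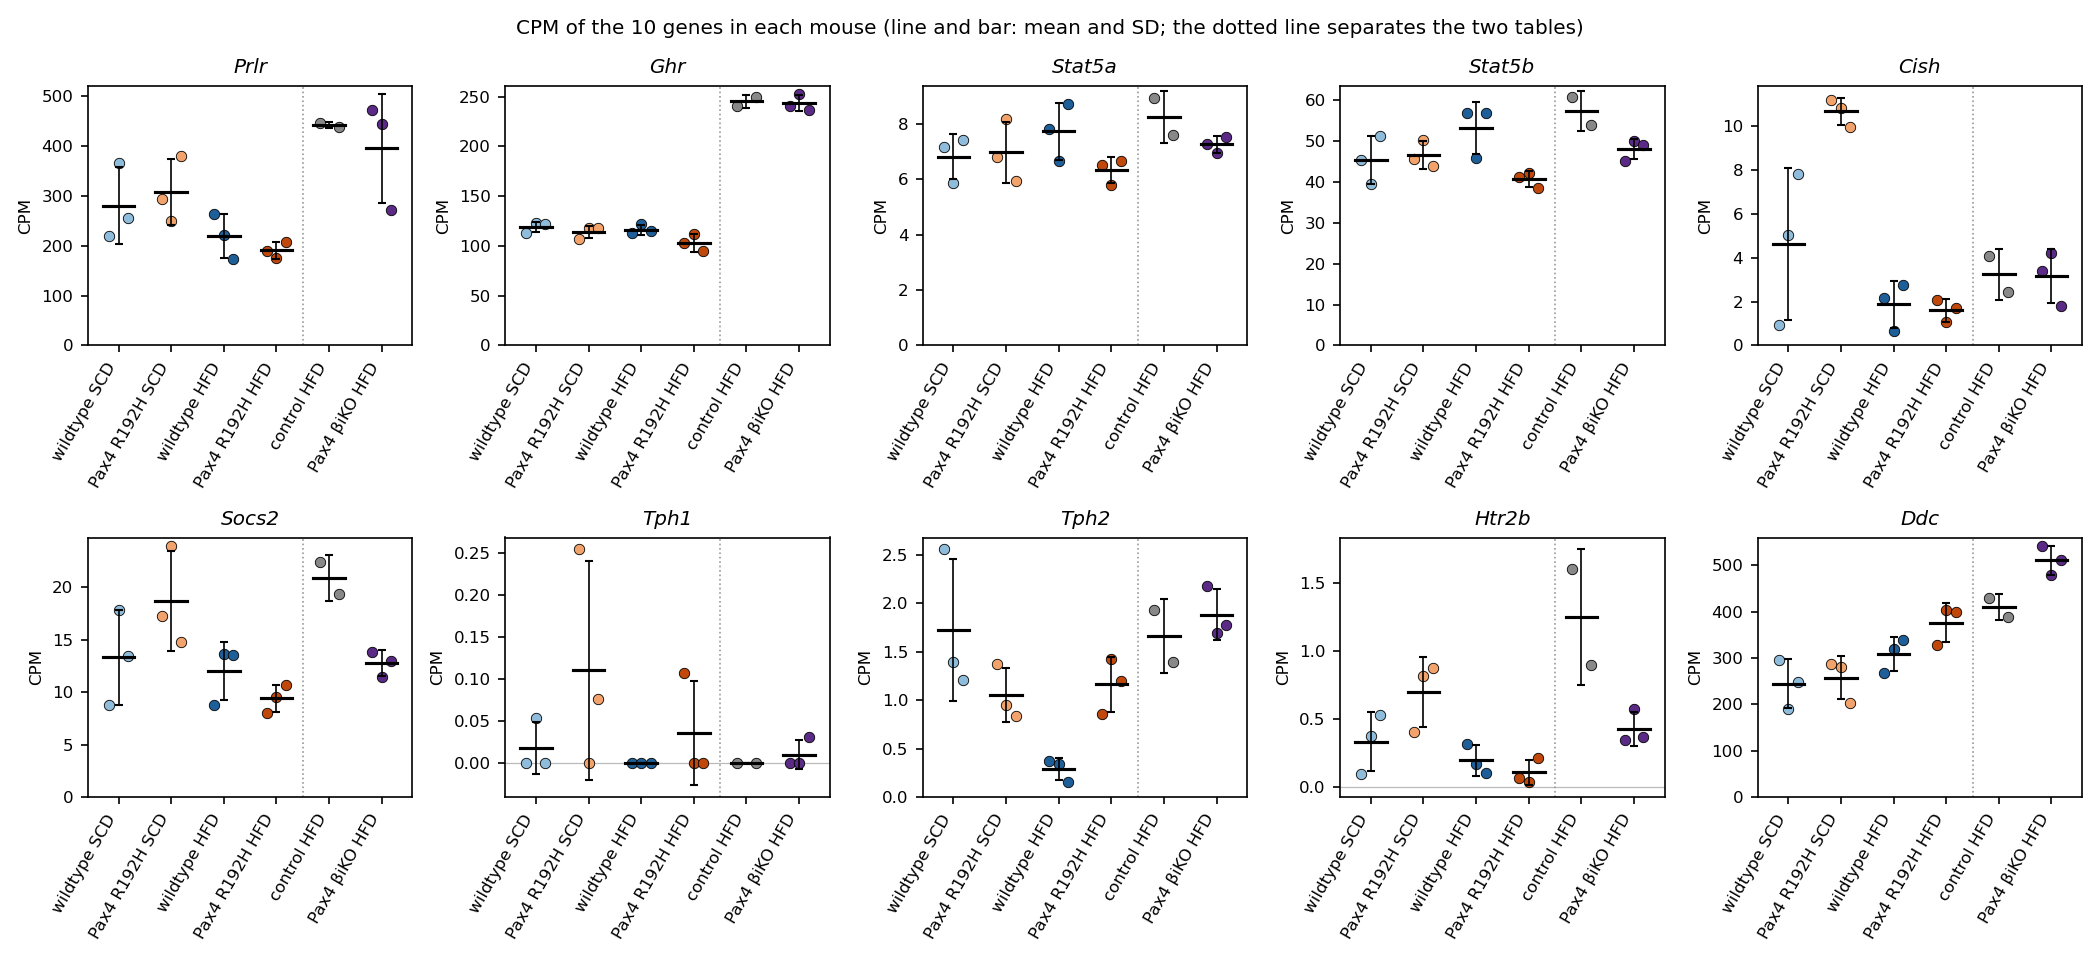
CPM of each of the 10 genes (vertical axes, linear) in every mouse, by group (horizontal axes), with the mean and SD of each group. *Cish* sat between 9.96 and 11.2 CPM in the *Pax4* R192H mice on the SCD and at 2.08 CPM or less in the *Pax4* R192H mice on the HFD, and *Tph2* was lowest in the wildtype mice on the HFD (0.156 to 0.373 CPM).

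Neither hormone was transcribed in the islets at a detectable level, since *Prl* and *Gh* had 0 counts in all 17 mice. Divided by the exonic length of the gene, the levels of the 10 genes kept much the same order across the groups. *Ddc* led in all 6 groups, with 54.7 CPM per kb in wildtype mice on the SCD. *Prlr* (18.2 CPM per kb in the same group) and *Ghr* (13.2) followed, and these neighbours overlapped between mice in both HFD groups of the first table and in *Pax4* βiKO mice. *Stat5b* came next at 8.20 CPM per kb. *Socs2* (1.40 CPM per kb), *Stat5a* (0.956), *Cish* (0.717) and *Tph2* (0.598) overlapped their neighbours in the order in wildtype mice on the SCD. *Htr2b* lay at 0.158 and *Tph1* at 0.00290 CPM per kb. *Tph1* was last in every group.

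A gene was called changed when the adjusted p-value of edgeR's quasi-likelihood test was below 0.05 and the absolute log2 fold change above 0.5. Among the 10 genes the most calls came between the diets in *Pax4* R192H mice, where *Prlr*, *Cish*, *Socs2* and *Htr2b* fell on the HFD. In wildtype mice the same contrast called *Tph2* alone, which fell. *Tph2* was also the only one of the 10 genes that was called between the genotypes on the HFD, where it was higher in *Pax4* R192H mice. No member was called between the genotypes on the SCD, in the interaction of genotype and diet, or between *Pax4* βiKO and control mice. Of all tested genes, the same thresholds called 15.7% between the diets in *Pax4* R192H mice, 0.371% between the diets in wildtype mice and 2.28% between the genotypes on the HFD. They called 0% on the SCD, where 629 of 19137 genes had an unadjusted p below 0.05 and the smallest adjusted p was 0.319. They called 0.131% in the interaction and 0.0893% between *Pax4* βiKO and control mice. The 4 of 9 members called between the diets in *Pax4* R192H mice thus stand beside a contrast in which 2996 of 19137 genes were called.

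**Figure D2:**
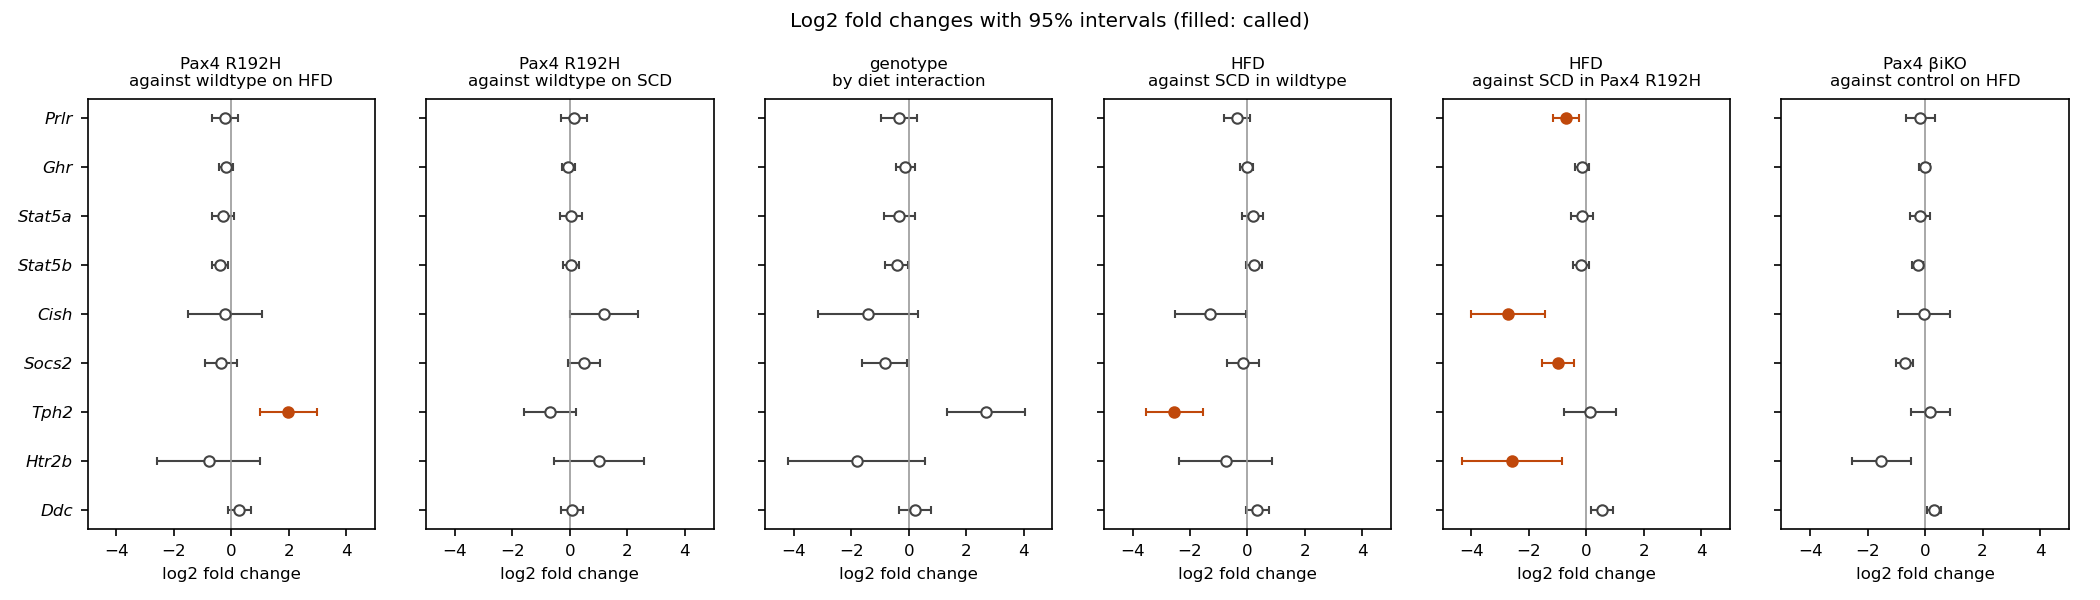
Log2 fold changes (horizontal axes) with 95% intervals for the 9 tested genes in the 6 comparisons, filled where called. *Tph2* was called in both contrasts that involve the wildtype mice on the HFD, and *Prlr*, *Cish*, *Socs2* and *Htr2b* were called between the diets in *Pax4* R192H mice.

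*Prlr*, which encodes the prolactin receptor, lies on the plus strand of chromosome 15 from 10177238 to 10349180 (GRCm38, the assembly of mm10). On the SCD its level was 219, 366 and 255 CPM in the 3 wildtype mice and 294, 249 and 379 CPM in the 3 *Pax4* R192H mice. On the HFD it was 263, 221 and 174 CPM in wildtype and 188, 174 and 208 CPM in *Pax4* R192H mice. All 3 *Pax4* R192H mice on the HFD were below all 3 of the same genotype on the SCD, while the wildtype mice of the 2 diets overlapped. The difference in *Pax4* R192H mice was -0.69 on the log2 scale (SE 0.21, 95% interval -1.15 to -0.24, edgeR, adjusted p = 0.0389). In wildtype mice it was -0.35 (95% interval -0.81 to 0.10, edgeR, adjusted p = 0.451). The call in *Pax4* R192H mice held in 5 of the 12 fits that left out 1 mouse, namely without wildtype SCD mouse 1 or 2, *Pax4* R192H SCD mouse 2 or wildtype HFD mouse 1 or 3. Without any other mouse the adjusted p was 0.0516 to 0.158. For the conditional knockout, *Prlr* was at 445 and 437 CPM in the controls and at 470, 442 and 270 CPM in *Pax4* βiKO mice, so that a single *Pax4* βiKO mouse stood apart and the groups overlapped. The log2 fold change there was -0.16 (95% interval -0.66 to 0.33, edgeR, adjusted p = 0.784).

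The RefSeq transcripts of 9 members gave 16 windows of 250 bases before a transcript start (GRCm38.p6). The set of windows used here held none for *Socs2*. The palindrome TTCNNNGAA, the known core of STAT5 sites, was searched on these windows, its reverse complement being the same pattern. A single window held it, against 7.02% of all 32851 windows of that length. It belongs to a transcript of *Prlr* that starts inside the gene, and the match lay 110 to 102 bases before the start. The window chr15:10223656-10223905 (plus strand) overlaps no annotated exon and is shown because it carries the only match, with the fixed letters of the palindrome in capitals.
Prlr upstream window: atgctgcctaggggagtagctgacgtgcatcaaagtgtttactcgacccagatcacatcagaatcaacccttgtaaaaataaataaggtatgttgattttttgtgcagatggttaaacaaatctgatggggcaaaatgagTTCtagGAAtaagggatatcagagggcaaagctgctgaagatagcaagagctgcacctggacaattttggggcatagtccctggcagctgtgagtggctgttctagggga
A match of these letters is a description of the sequence and was not tested for binding.

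*Ghr*, which encodes the growth hormone receptor, varied little between mice. Its level was 113, 123 and 122 CPM in wildtype and 107, 118 and 118 CPM in *Pax4* R192H mice on the SCD. On the HFD it was 113, 122 and 115 CPM in wildtype and 103, 112 and 94.6 CPM in *Pax4* R192H mice, and the latter lay just below the former without overlap. That difference was -0.18 on the log2 scale (95% interval -0.41 to 0.06, edgeR, adjusted p = 0.462). In the second table *Ghr* was at 241 and 250 CPM in controls and at 241, 253 and 237 CPM in *Pax4* βiKO mice. None of the 6 comparisons called it, and its log2 fold changes ran from -0.18 to -0.01.

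*Stat5a* and *Stat5b*, which encode the pair of STAT5 proteins, lie next to each other on chromosome 11, 8627 bases apart. *Stat5b* was the more abundant in every mouse, with 5.80 to 7.36 times the count of *Stat5a*. Of the 100-base windows of their transcripts, 3.44% of those of *Stat5a* and 4.79% of those of *Stat5b* occur in the other gene too, so that few reads could be shared. *Stat5b* was at 56.8, 45.8 and 57.0 CPM in wildtype mice on the HFD and at 41.2, 42.3 and 38.6 CPM in *Pax4* R192H mice on the HFD. The groups did not overlap, as was the case for 22.9% of all genes in that comparison. The log2 fold change was -0.39 (SE 0.13, 95% interval -0.66 to -0.11, edgeR, adjusted p = 0.138), which missed both thresholds. On the SCD the level was 45.4, 39.6 and 51.3 CPM in wildtype and 45.7, 50.4 and 43.8 CPM in *Pax4* R192H mice, and the log2 difference was 0.04 (95% interval -0.24 to 0.31). The interaction was -0.42 (95% interval -0.81 to -0.03, edgeR, adjusted p = 0.400). In *Pax4* βiKO mice *Stat5b* was at 45.2, 49.9 and 49.1 CPM against 60.8 and 53.9 CPM in controls, again lower without overlap and not called (log2 fold change -0.25, edgeR, adjusted p = 0.315). *Stat5a* ran from 5.79 to 8.72 CPM over the 12 mice of the first table and from 6.95 to 8.92 CPM over the 5 of the second. Its log2 fold changes lay between -0.32 and 0.18, and none was called.

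*Cish*, which encodes a STAT5-induced inhibitor of cytokine receptor signalling, varied widely between mice and groups. It was at 11.2, 10.8 and 9.96 CPM in *Pax4* R192H mice on the SCD and at 2.08, 1.05 and 1.70 CPM in *Pax4* R192H mice on the HFD. All 3 mice on the SCD were thus far above all 3 on the HFD. The log2 fold change was -2.72 (SE 0.60, 95% interval -4.00 to -1.43, edgeR, adjusted p = 0.00813), and *Cish* was called in all 12 fits that left out 1 mouse. Wildtype mice on the SCD were spread widely, at 0.943, 5.04 and 7.82 CPM, and wildtype mice on the HFD were at 2.16, 0.682 and 2.76 CPM. Here the diets overlapped, through the first wildtype mouse on the SCD. The log2 fold change in wildtype mice was -1.29 (SE 0.57, 95% interval -2.53 to -0.06, edgeR, adjusted p = 0.305), and ran from -1.77 without wildtype SCD mouse 1 to -0.66 without wildtype SCD mouse 3. On the SCD the *Pax4* R192H mice were above the wildtype mice without overlap, by 1.20 on the log2 scale (95% interval 0.01 to 2.39, edgeR, adjusted p = 1). The genotypes did not overlap on the SCD for 7.83% of all genes, and the estimate was 0.73 without wildtype SCD mouse 1 and 1.84 without wildtype SCD mouse 3. The macrophage markers were the list whose sum separated these groups, at 65.1 to 67.3 CPM in *Pax4* R192H against 89.7 to 139 CPM in wildtype mice, and their part was not tested. On the HFD the genotypes overlapped and differed by -0.22 (95% interval -1.51 to 1.06). The interaction of genotype and diet was -1.42 (95% interval -3.17 to 0.32, edgeR, adjusted p = 0.546, and -2.04 to -0.93 without single mice), which missed the threshold. Without the filter on low counts edgeR called *Cish* in the interaction (adjusted p = 0.0187), between the genotypes on the SCD (0.00154) and between the diets in wildtype mice (0.000293), with log2 fold changes of -1.42, 1.20 and -1.30. In the second table *Cish* was at 4.05 and 2.42 CPM in controls and at 3.40, 4.23 and 1.81 CPM in *Pax4* βiKO mice, which overlapped.

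*Socs2* encodes a further STAT5-induced inhibitor that acts mainly on growth hormone signalling. In *Pax4* R192H mice it was at 17.3, 23.9 and 14.8 CPM on the SCD and at 8.02, 9.53 and 10.6 CPM on the HFD. The diets did not overlap, and the log2 fold change was -0.99 (SE 0.26, 95% interval -1.55 to -0.43, edgeR, adjusted p = 0.0202). The call was lost without *Pax4* R192H SCD mouse 2 or *Pax4* R192H HFD mouse 1 or 2, where the adjusted p was 0.0696 to 0.103. In wildtype mice *Socs2* was at 8.73, 17.8 and 13.4 CPM on the SCD and at 8.77, 13.6 and 13.6 CPM on the HFD. The wildtype groups overlapped (log2 fold change -0.16, 95% interval -0.71 to 0.40). The first wildtype mouse on the SCD was the lowest of its group for *Socs2* as it was for *Cish*. The interaction was -0.84 (95% interval -1.62 to -0.05, edgeR, adjusted p = 0.412). In the second table *Socs2* was at 22.4 and 19.3 CPM in controls and at 13.8, 11.4 and 13.0 CPM in *Pax4* βiKO mice. It was lower in all 3 *Pax4* βiKO mice than in both controls, and the groups did not overlap for 32.6% of all genes. The log2 fold change was -0.71 (SE 0.13, 95% interval -1.01 to -0.42, edgeR, adjusted p = 0.141). DESeq2, the tool the study used, called it with an adjusted p of 0.00165 when run on all genes with a count. On the same unfiltered genes edgeR gave an adjusted p of 0.000141, so that leaving out the filter alone gained the call in edgeR. DESeq2 was not run on the filtered genes, and its own part is not told apart from that of the filter. Between the same mice the summed markers were higher in *Pax4* βiKO without overlap for the duct (255 to 317 against 203 to 207 CPM), liver (2490 to 3006 against 1526 to 2100 CPM), intestinal (987 to 1301 against 741 to 795 CPM), α cell (13971 to 14196 against 10842 to 13923 CPM), β cell (131525 to 137031 against 120461 to 131317 CPM) and endothelial lists (179 to 215 against 169 to 176 CPM). In these lists 0 markers were called, and all 4 endothelial markers had a higher estimate. A lower estimate was found for 4 of 6 duct and 4 of 7 β cell markers. Of the other tested markers, 2 of 4 in the α cell, 1 of 2 in the intestinal and 1 of 3 in the liver list were lower. The part of these lists in the differences between *Pax4* βiKO and control mice was not tested.

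The fall of *Prlr*, *Cish*, *Socs2* and *Htr2b* between the diets in *Pax4* R192H mice came with other differences between the same mice. The 18 acinar markers were all called higher on the HFD, and their summed CPM rose from 12452 to 18832 on the SCD to 34451 to 96279 on the HFD. The summed CPM of the 7 β cell markers ran from 49844 to 52042 on the SCD and from 98889 to 109992 on the HFD, but the list did not move as one, with 3 called higher (*Ins1*, *Ins2* and *Iapp*), 1 called lower (*Slc2a2*) and 3 not called. The sums of further lists did not overlap between these diets either. The duct markers summed to 78.0 to 101 CPM on the SCD and 125 to 133 CPM on the HFD, the intestinal list to 474 to 720 and 908 to 1490 CPM, and the liver list to 574 to 805 and 1393 to 1855 CPM. The duct and liver lists did not move as one either. A lower estimate on the HFD was found for 3 of 6 duct markers and 2 of 3 tested liver markers. The sum of the 4 α cell markers was lower on the HFD, at 3870 to 5462 CPM against 5637 to 7639 CPM. Of these markers 3 had a lower and 1 a higher estimate, with 0 called. The sum of the stromal markers was lower as well, at 56.4 CPM or less against 59.6 to 130 CPM. So was that of the mast cell markers, at 2.18 to 2.50 CPM against 3.43 to 5.46 CPM. The part of these further lists in the result was not tested. With the mean level of the acinar markers as a covariate, 0 of the 9 members were called in this contrast (smallest adjusted p among the 4 genes 0.175, for *Cish*), and *Cish*, *Socs2*, *Prlr* and *Htr2b* had log2 fold changes of -3.42, -0.65, -0.72 and -2.97, the last with an adjusted p of 0.338. In that fit 75 of 19137 genes were called, against 2996 without the covariate, and the acinar markers moved with the diet in these mice. *Stat5b* was also lower on the HFD without overlap and not called (-0.20, 95% interval -0.47 to 0.08). In all, 5 of the 9 members were lower and 1 higher on the HFD without overlap, where 41.8% of all genes did not overlap.

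*Tph2* (chromosome 10, 115078641 to 115185022, minus strand) encodes the tryptophan hydroxylase known mainly from neurons, and in these islets it had the higher count of the hydroxylase pair in every mouse. The 250 bases before its start (chr10:115185023-115185272, minus strand, written in the direction of the gene) are shown because the gene was called in opposite directions between diets and genotypes. They overlap no annotated exon and hold no match to TTCNNNGAA.
Tph2 upstream window: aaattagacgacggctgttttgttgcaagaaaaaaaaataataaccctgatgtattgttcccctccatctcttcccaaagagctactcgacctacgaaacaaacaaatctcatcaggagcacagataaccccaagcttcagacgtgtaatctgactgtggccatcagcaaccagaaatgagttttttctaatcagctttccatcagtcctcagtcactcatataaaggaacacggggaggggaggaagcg
*Tph2* was at 2.56, 1.39 and 1.21 CPM (76, 52 and 50 counts) in wildtype mice on the SCD and at 0.373, 0.341 and 0.156 CPM (14, 10 and 6 counts) in wildtype mice on the HFD. The diets did not overlap in wildtype mice, as was the case for 17.9% of all genes. *Tph2* fell by 2.56 on the log2 scale (SE 0.46, 95% interval -3.55 to -1.56, edgeR, adjusted p = 0.0436). In *Pax4* R192H mice it was at 1.37, 0.948 and 0.840 CPM (54, 36 and 22 counts) on the SCD and at 0.859, 1.43 and 1.20 CPM (24, 34 and 39 counts) on the HFD. These overlapped, with a log2 fold change of 0.13 (95% interval -0.78 to 1.05).

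On the HFD every *Pax4* R192H mouse had more *Tph2* than every wildtype mouse, with a log2 fold change of 2.00 (SE 0.46, 95% interval 1.00 to 2.99, edgeR, adjusted p = 0.0414). On the SCD the difference was -0.70 (95% interval -1.60 to 0.21, edgeR, adjusted p = 1), with overlap. The interaction was 2.69 (SE 0.62, 95% interval 1.35 to 4.03, edgeR, adjusted p = 0.109), which missed the threshold, while DESeq2 on the unfiltered genes called it (adjusted p = 0.0145). Both calls share the same 3 wildtype mice on the HFD and are not independent of each other. The call between the genotypes was kept without wildtype SCD mouse 1 or 2 or *Pax4* R192H SCD mouse 3, and without any other mouse the adjusted p was 0.0507 to 0.152. The call between the diets in wildtype mice was kept without *Pax4* R192H SCD mouse 1 or 3 or wildtype HFD mouse 1, and without any other mouse it was 0.0549 to 0.197. The log2 fold changes kept their sign, from 1.69 to 2.23 between the genotypes and from -2.79 to -2.15 between the diets. DESeq2, likewise unfiltered, called *Tph2* in both comparisons (adjusted p = 0.00496 and 0.000186). With only the 2 compared groups in the model edgeR called it in neither (adjusted p = 0.0766 between the genotypes and 0.175 between the diets). Among the marker lists, the summed acinar markers overlapped between the diets in wildtype mice, and all 6 stromal markers had a lower estimate on the HFD, with a sum of 29.8 to 43.7 CPM against 48.2 to 257 CPM on the SCD. The β cell markers summed to 64765 to 93112 CPM on the HFD against 44350 to 58641 CPM, with 0 of 7 called. The 7 macrophage markers summed to 69.4 to 78.5 CPM in wildtype mice on the HFD against 89.7 to 139 CPM on the SCD, and 1 of them, *Lyz2*, was called lower (-2.23, edgeR, adjusted p = 0.0112). The 4 neural markers, with none at 0 in any group, summed to 37.5 to 42.7 CPM against 39.5 to 47.6 CPM, with overlap. Between the genotypes on the HFD more lists separated. The neural markers summed to 45.7, 48.1 and 47.2 CPM in *Pax4* R192H against 37.5, 42.6 and 42.7 CPM in wildtype mice, higher without overlap, and 0 of the 3 tested were called. The sums were also higher without overlap for the acinar, duct (125 to 133 against 78.4 to 97.7 CPM), intestinal (908 to 1490 against 573 to 822 CPM), liver (1393 to 1855 against 642 to 784 CPM) and β cell lists (98889 to 109992 against 64765 to 93112 CPM), although 0 of the 7 β cell markers were called higher and 1, *Slc2a2*, was called lower. In the liver list *Ttr*, which the study counts among α cell enriched genes, was called higher (1.16, edgeR, adjusted p = 0.00731). In the intestinal list *Chgb* was higher by 0.81 and not called (edgeR, adjusted p = 0.105). The mast cell sum was lower, at 2.18 to 2.50 against 2.73 to 3.25 CPM. The part of the lists in the *Tph2* differences was not tested. With the acinar markers as a covariate neither difference was called (edgeR, adjusted p = 0.339 between the genotypes and 0.0692 between the diets), while the log2 fold changes were 2.54 and -2.39. In that fit 1 of 19137 genes was called between the genotypes, against 437 without the covariate. The acinar markers moved with the genotype in these mice. Between the diets in wildtype mice 38 genes were called, against 71 without the covariate. Among the 5 older mice *Tph2* was at 1.93 and 1.39 CPM in controls and at 2.18, 1.69 and 1.78 CPM in *Pax4* βiKO mice, which overlapped (log2 fold change 0.18, 95% interval -0.49 to 0.85).

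*Tph1*, the hydroxylase that lactogens induce in the β cell during pregnancy, was at or near the limit of detection in these male islets. It had 0 counts in 12 of the 17 mice. The 5 others were a wildtype mouse on the SCD with 2 counts, 2 *Pax4* R192H mice on the SCD with 10 and 2 counts, a *Pax4* R192H mouse on the HFD with 3 counts and a *Pax4* βiKO mouse with 1 count. The highest value was 0.254 CPM. A difference in *Tph1* was not detectable at this depth, at which 3 counts correspond to 0.126 CPM or less.

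*Htr2b* encodes a serotonin receptor that couples to Gq, and was rare in these islets. The gene (chromosome 1, 86099026 to 86111970, minus strand) sits wholly inside *Psmd1* on the other strand. The 250 bases before its RefSeq start (chr1:86111981-86112230, minus strand) overlap no annotated exon, and are shown because they too lie within *Psmd1*.
Htr2b upstream window: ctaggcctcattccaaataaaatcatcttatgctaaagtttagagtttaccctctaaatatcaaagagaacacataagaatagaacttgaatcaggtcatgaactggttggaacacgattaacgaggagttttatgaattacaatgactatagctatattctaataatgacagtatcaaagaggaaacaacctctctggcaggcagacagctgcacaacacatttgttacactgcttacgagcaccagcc
In *Pax4* R192H mice *Htr2b* had 16, 31 and 23 counts on the SCD (0.407, 0.816 and 0.878 CPM) and 2, 1 and 7 counts on the HFD (0.0716, 0.0420 and 0.216 CPM). The diets did not overlap, although the HFD values stood below the floor of 3 counts in 2 of the 3 mice. The log2 fold change was -2.58 (SE 0.81, 95% interval -4.32 to -0.84, edgeR, adjusted p = 0.0430). It ran from -3.52 without *Pax4* R192H HFD mouse 3 to -2.23 without *Pax4* R192H HFD mouse 2. Without the filter on low counts the adjusted p was 0.0529, and *Htr2b* could not be tested where 10 counts were required in every mouse. The call was kept in 4 of 12 fits without a mouse, without wildtype SCD mouse 1, wildtype HFD mouse 1 or 3, or *Pax4* R192H HFD mouse 3, and without any other mouse the adjusted p was 0.0527 to 0.154. Wildtype mice had 3, 14 and 22 counts on the SCD and 12, 5 and 4 counts on the HFD, which overlapped. In the second table the controls had 43 and 27 counts (1.60 and 0.895 CPM) and the *Pax4* βiKO mice 10, 19 and 12 counts (0.347, 0.574 and 0.368 CPM). All 3 *Pax4* βiKO mice were below both controls, by -1.52 on the log2 scale (SE 0.44, 95% interval -2.55 to -0.49, edgeR, adjusted p = 0.273), which was not a call. *Psmd1* was at 53.1 to 74.1 CPM over the first table and differed between the diets in *Pax4* R192H mice by 0.04 (edgeR, adjusted p = 0.865). The libraries were stranded, and whether strand was used in the counting is not given in the sources used here, so that reads of the pair may not have been told apart.

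*Ddc* was abundant in all islets. On the SCD it was at 295, 189 and 248 CPM in wildtype and at 287, 281 and 204 CPM in *Pax4* R192H mice. On the HFD it was at 269, 319 and 339 CPM in wildtype and at 329, 403 and 398 CPM in *Pax4* R192H mice. The *Pax4* R192H mice were higher on the HFD without overlap, by 0.55 on the log2 scale (SE 0.18, 95% interval 0.16 to 0.94), with an adjusted p of 0.0538 in edgeR and 0.0221 in DESeq2 without the filter on low counts. In wildtype mice the difference was 0.34 (95% interval -0.05 to 0.73). Among the 5 older mice *Ddc* was at 430 and 390 CPM in controls and at 542, 479 and 512 CPM in *Pax4* βiKO mice, higher without overlap and not called (0.32, 95% interval 0.08 to 0.55, edgeR, adjusted p = 0.288). The count of *Ddc* was 115 to 205 times that of *Tph2* in wildtype mice on the SCD and 720 to 2170 times in wildtype mice on the HFD. In the other groups this ratio was 209 to 383.

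**Figure D3:**
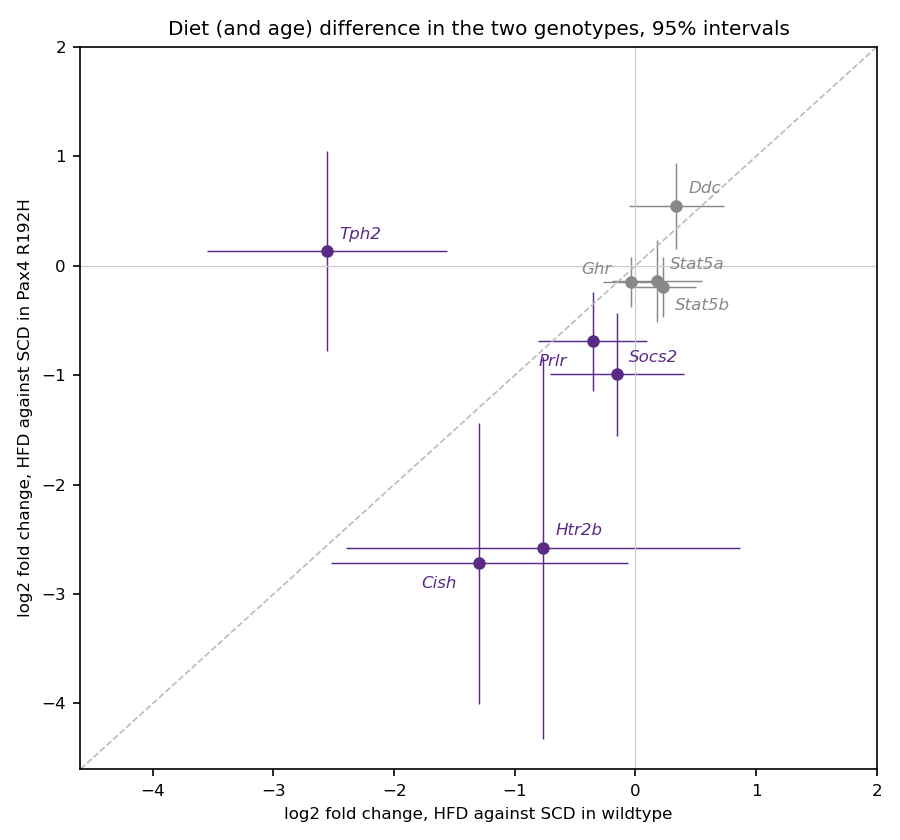
Log2 fold change of HFD against SCD for the 9 tested genes in wildtype (horizontal axis) and *Pax4* R192H mice (vertical axis), with 95% intervals and the line of equal change. The 2 contrasts share no mice. *Tph2* lay far from the line (-2.56 and 0.13), and 7 of the 9 genes lay below it, *Ddc* (0.34 and 0.55) and *Tph2* above.

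Set side by side, the contrasts between the diets shared no mice. 6 of the 9 members had a negative log2 fold change in wildtype and 7 in *Pax4* R192H mice, and the medians were -0.16 and -0.20, beside 0.01 and -0.06 over all tested genes. *Prlr*, *Cish*, *Socs2* and *Htr2b* had lower estimates on the HFD in both genotypes, at -0.35, -1.29, -0.16 and -0.76 in wildtype and -0.69, -2.72, -0.99 and -2.58 in *Pax4* R192H mice. The interaction test called none of them. Unadjusted, its p was below 0.05 for *Tph2*, *Stat5b* and *Socs2* (0.000782, 0.0352 and 0.0395, edgeR), as it was for 2147 of 19137 genes.

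**Figure D4:**
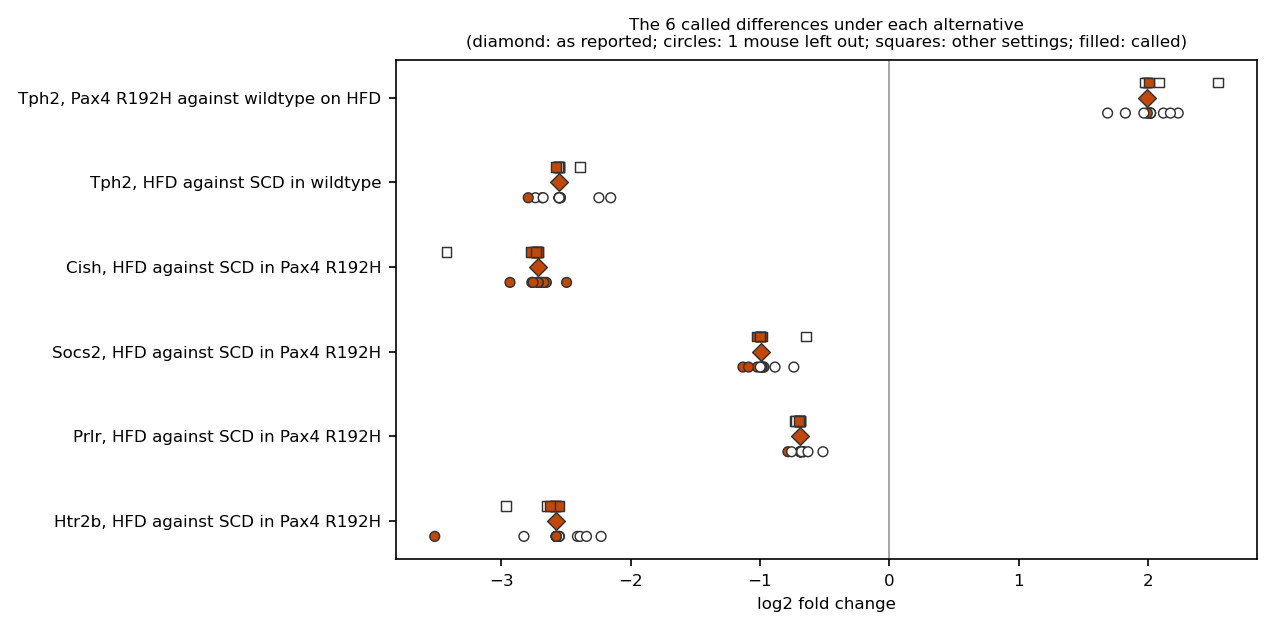
Log2 fold change (horizontal axis) of the 6 called differences as reported (diamonds), with 1 mouse left out (circles) and under other settings (squares), filled where called. The sign was the same in all fits, and *Cish* was the only one called in every fit that left out a mouse.

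The 20 genes of the lactogen and growth hormone axis (hormones, receptors, kinases, STATs, inhibitors and phosphatases) included 17 that could be tested in the first table. Between the diets in *Pax4* R192H mice 0 rose and 3 fell, all of them members named above, in a contrast that called 15.7% of all genes. *Jak2*, the kinase bound to both receptors, differed by -0.39 (edgeR, adjusted p = 0.0225), *Jak1* by -0.42 (adjusted p = 0.0362) and *Stat3* by -0.44 (adjusted p = 0.0478), each short of the threshold of 0.5 in size and named after their values were seen. The median of the list was -0.15, beside -0.06 for all genes. Between the genotypes on the HFD 0 of 17 were called, 15 had a negative log2 fold change and the median was -0.22 beside -0.01. In *Pax4* βiKO mice 0 of 17 were called and the median was -0.13 beside 0.01.

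Among the 11 tested of 19 genes of cytokine receptors with links to STAT5, which include *Prlr* and the ligand gene *Tslp*, 1 rose and 3 fell between the diets in *Pax4* R192H mice, beside the same 15.7% of all genes. *Crlf2*, part of the receptor for thymic stromal lymphopoietin, rose by 1.91 (edgeR, adjusted p = 0.00109). *Il6st*, the shared receptor chain of the interleukin 6 family, fell by 0.79 (adjusted p = 0.0114), and *Lifr*, its partner in the leukaemia inhibitory factor receptor, fell by 0.59 (adjusted p = 0.0255). The median was -0.59 beside -0.06. None of the 11 was called in any other comparison of the first table, and 0 of 14 in the second.

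A list of 18 genes that respond to lactogens in the islet held 16 tested ones, and 4 of these 18 besides *Tph1* are members. Between the diets in *Pax4* R192H mice 2 rose and 3 fell (15.7% of all genes called in either direction). *Tnfrsf11b*, which encodes the decoy receptor osteoprotegerin, was at 4.47 to 4.93 CPM on the SCD and 10.4 to 14.4 CPM on the HFD and rose by 1.41 (edgeR, adjusted p = 0.000866). *Men1*, which encodes the tumour suppressor menin, rose by 0.79 (adjusted p = 0.0161), and the 3 that fell were *Prlr*, *Cish* and *Socs2*. *Tnfrsf11b* was also higher in *Pax4* R192H than in wildtype mice on the HFD, by 1.14 (edgeR, adjusted p = 0.0140). *Tnfrsf11b* thus moved the other way from *Cish* and *Socs2* within one list.

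Of the 10 genes of serotonin synthesis, which include the enzymes that make and recycle the cofactor tetrahydrobiopterin, 8 were tested in the first table. Between the diets in *Pax4* R192H mice 3 rose and 0 fell, where 1865 of 19137 genes rose and 1131 fell. These were the cofactor genes *Spr* (0.68, edgeR, adjusted p = 0.0185), *Qdpr* (0.75, adjusted p = 0.00623) and *Pcbd2* (0.77, adjusted p = 0.0489), and no hydroxylase was among them. The median was 0.40 beside -0.06. Of 13 genes of serotonin storage, uptake and breakdown, 10 were tested, and *Maob*, a monoamine oxidase, was the 1 that was called, falling by 0.67 (edgeR, adjusted p = 0.0210). Of 14 serotonin receptor genes, 2 were tested in the first table and 12 were too low. These were *Htr2b* and *Htr3a*, the latter named after its values were seen and called in no comparison. Among the control and *Pax4* βiKO mice 0 of 9, 0 of 10 and 0 of 3 genes of these lists were called.

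The genes whose level followed that of *Prlr* most closely, after the mean of each group was removed, were *Pds5b*, a cohesin regulator, *Wwp1*, a ubiquitin ligase, and *Ywhaz*, a 14-3-3 protein. Pearson's r over the 12 mice of the first table was 0.98, 0.97 and 0.97 (Spearman's rho 0.97, 0.99 and 0.96), and 0.96, 0.95 and 0.96 without the 2 mice farthest from the median. They were the highest of 13151 genes searched, and all values come from the same libraries. Over the same mice the deviation of *Prlr* had an r of 0.19 with the scaling factor of the library. *Tph1* was too low for such a search.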

How the data were processed

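Total RNA of isolated islets was extracted with TRIzol and made into stranded total RNA libraries, which the authors sequenced as paired ends, aligned to mm10 with STAR (2.7.1) and quantified with RSEM (1.3.3). The deposited tables, 1 for the knock-in mice and 1 for the conditional knockout, hold expected counts per gene, which were rounded to whole numbers here. The annotation release and the strand setting of the counting are not given in the sources used here. The authors tested such counts with DESeq2 after tximport.

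Groups followed the sample labels, and all value columns had a sample. Each table was filtered with filterByExpr (minimum count 10), scaled by TMM and fitted with edgeR 4.0.16 in R 4.3.3, with 1 term per group, the 4 groups of the first table sharing 1 estimate of the spread. Quasi-likelihood F-tests were two-sided, p-values were adjusted by Benjamini-Hochberg over all tested genes, and genes were called at an adjusted p below 0.05 with a log2 fold change of more than 0.5 in either direction. The filter left 19137 and 20167 genes. Intervals cover 95%. DESeq2 1.42.0 with its defaults on all genes with a count, another scaling, other filters, a replicate block, an acinar covariate, fits of 2 groups and fits without each mouse were alternatives. Lengths and positions came from GENCODE M21, and promoter windows from RefSeq. The scripts were tested on simulated data.

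The 10 genes and the gene lists were chosen with earlier results of these data known. Named were all 10, up to 6 called genes per list and comparison, and the 3 genes with the highest correlation with *Prlr* among those with a mean of at least 1 CPM (log2 CPM with a prior count of 2).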

Additional observations from a re-analysis of the deposited data

How the results depend on the processing

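The 6 called differences kept their sign under all alternatives that gave a value, and their side of the thresholds under fewer. Between the genotypes on the HFD 1 member was called, and 0 with at least 10 counts required in every mouse (which removed *Tph2* from the test), with a replicate block, with the acinar covariate or with only the 2 groups in the model, and 0 to 1 without single mice. Between the diets in wildtype mice 1 was called, 0 under the same 4 alternatives, 2 without the filter on low counts and 0 to 1 without single mice. Between the diets in *Pax4* R192H mice 4 were called, 2 with the replicate block (*Cish* and *Socs2*), 0 with the acinar covariate, and 1 to 5 without single mice; *Htr2b* was not called without the filter on low counts (adjusted p = 0.0529) and had no test with at least 10 counts in every mouse, where the 4 called were *Prlr*, *Cish*, *Socs2* and *Ddc*. No member was called on the SCD, in the interaction or in *Pax4* βiKO mice, but 1 (*Cish*), 2 (*Cish* and *Tph2*) and 1 (*Socs2*) were without the filter on low counts, and DESeq2, run without that filter too, called 1 (*Tph2*) in the interaction and 1 (*Socs2*) in *Pax4* βiKO mice. The deviations of mice with the same replicate number had correlations from -0.296 to 0.193. Mice with different numbers were not compared in this way, so these values cannot show whether the numbers mark a pairing. The number was taken as a name. With the replicate block the adjusted p of *Prlr*, *Htr2b* and *Tph2* was 0.0736, 0.0669 and 0.0646 (0.0700 between the diets in wildtype mice). Of 988 alternative values for single members 902 stayed on the same side with the same sign, 49 lost a call, 14 gained one, 0 called values reversed and 23 uncalled ones changed sign. Over all genes the number called moved from 437 to 920 (DESeq2 without the filter on low counts), 147 (replicate block), 1279 (edgeR without the filter) and 1 (acinar covariate) between the genotypes on the HFD, from 71 to 545, 22, 924 and 38 between the diets in wildtype mice, from 2996 to 3521, 2347, 3819 and 75 in *Pax4* R192H mice, and from 18 to 250, 88, 697 and 13 in *Pax4* βiKO mice. On the SCD 23 genes were called by DESeq2 and 261 by edgeR, both without the filter, and in the interaction 311, 0 with the block and 708 without the filter. The cause of these changes was not tested. Depth limits *Tph1*, *Htr2b* and *Tph2*, whose counts were as low as 0, 1 and 6.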
